A study of Mus musculus with 51 samples.

Results

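Alveolar macrophages collected without any instillation from gp91phox-/- mice were compared with the same cells from C57Bl/6 mice, to give the genotype difference at rest. The arrays were taken by their titles, 3 untreated arrays from gp91phox-/- mice (KO) and 4 untreated arrays from C57Bl/6 mice (WT), all at 0 h, which makes 7 of the 51 arrays of the study. The study asked how alveolar macrophages of a normal and of an immunocompromised host respond to conidia of the mould Aspergillus fumigatus. Of the other arrays, 18 from KO and 24 from WT mice followed mock instillation or conidia, at 2 or 4 h. The conidia were given at the amounts the labels call e6 and e7. These arrays served here to follow the resting differences. The remaining arrays came from WT mice 4 h after inoculation with beads and entered no comparison between genotypes. In the fit over all arrays, the instilled and the bead arrays helped to estimate the spread behind every call. The labels give neither the strain background of the gp91phox-/- mice nor age, sex or the number of mice behind an array, so an effect of the deleted gene and of the strain it is carried on cannot be told apart.

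Alveolar macrophages are the resident phagocytes of the airspaces, where they take up inhaled particles and surfactant. The phagocyte NADPH oxidase transfers electrons from NADPH to oxygen and makes superoxide inside the phagosome. Its catalytic subunit, gp91phox, is encoded by the X-linked gene Cybb, and loss of it causes chronic granulomatous disease, in which mould infection of the lung is a hallmark.

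The values were signal intensities on Affymetrix arrays, analysed on the log2 scale, and every difference below is KO minus WT in log2 units with its standard error. A probe set was called when its Benjamini-Hochberg adjusted p from limma, over all 22626 probe sets tested, was below 0.05. Of these probe sets 450 were called (1.99% of those tested), 260 higher and 190 lower in KO, and 3090 had an unadjusted p below 0.05. With 1 probe set taken per gene, 296 of 12393 genes were called (2.39%), 164 higher (1.32%) and 132 lower (1.07%). The shares of genes called higher and lower are the background for each count of called list members below. The median difference over all genes was -0.06. The number of arrays limits the precision, and single arrays carried much of it: the count of probe sets was 114 without KO array 1, 183 without KO array 2, 835 without KO array 3, 264 without WT array 3 and 290 without WT array 4. A fit of only the 7 untreated arrays, which cannot borrow the spread of the other groups, called 58 probe sets.

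Array quality was not even within the groups. The 3'/5' signal ratio of the Gapdh and Actb control probe sets, a measure of RNA integrity and labelling given in log2, was 3.92, 3.55, 1.65 and 2.43 on WT arrays 1 to 4 and 1.18, 1.51 and 3.09 on KO arrays 1 to 3. The groups overlapped (difference -0.96, exact two-sided permutation p = 0.286, where the smallest possible p is 0.0571). Leaving out the 3 arrays with a ratio above 3 (WT arrays 1 and 2, KO array 3), an alternative chosen after seeing the data, gave 558 calls, of which 272 were shared with the 450, and the share of higher calls was 41.0%. Arrays of the same group correlated at 0.940 to 0.948 over all probe sets and arrays of different genotype at 0.934 to 0.940.

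The markers of alveolar macrophages, which the labels name, gave a high summed signal in both groups. The sum of the 22 measured markers ran from 136569 to 142122 in WT and from 135172 to 166152 in KO, and the brightest markers weigh most in it. All 22 had a signal above 50 on at least 1 of the 7 arrays, which does not place each marker in both groups. Of these markers 1 was called, Fabp4. Of 16 neutrophil markers 9 stayed below 50 on every array, and the sum was 11515 to 11840 in WT against 10011 to 12113 in KO. The sum of 19 lung epithelial markers was lower in KO, 3068 to 3918 against 4194 to 5968. None of the markers was called, and 5 of them were lower on every KO array, as were 9% of all genes. The part of these epithelial transcripts in the results below was not tested. Markers of monocytes, interstitial macrophages and dendritic cells moved with the genotype, mostly at low signal. Of 17 differences 15 were above 0, and 6 genes lay above WT on every KO array, as did 6.9% of all genes. The median was 0.79, and the sum was 8001 to 8879 in WT and 8515 to 9894 in KO. Of these 17 markers 1 was called, C1qb, while C1qa (2.24 ± 0.84), C1qc (2.83 ± 0.99) and Ccr7 (2.35 ± 0.92) were not called (adjusted p = 0.182, 0.143 and 0.204), and 9, among them C1qa and C1qc, stayed below 50 on every array. The list median was 0 with signals under 50 set to 50. The part of these markers in the results below was not tested. In the T and NK cell list 13 of 17 markers, among them Cd3d, Cd3e, Cd3g, Cd4 and Cd8a, were below 50 on every array. In bulk samples, fewer cells of a type and less RNA per cell cannot be told apart.

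Cybb, the deleted gene, had a signal of 11.03, 10.61, 11.10 and 10.67 on the WT arrays and 8.77, 8.54 and 7.70 on the KO arrays. The groups did not overlap, and the difference was -2.52 ± 0.29 (limma, adjusted p = 3.36e-07), a signal 5.73-fold higher in WT. The residual KO signal was well above 50. Whether the 1 Cybb probe set lies inside the altered part of the gene is not given in the files, so it checks the labels by its drop alone. The call held in every alternative run, with values between -2.73 and -2.20.

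No other measured oxidase gene was called. Cyba, which encodes the membrane partner p22phox, stood at 12.82, 12.78, 13.18 and 13.11 in WT, with KO array 1 above them at 13.42 and KO arrays 2 and 3 inside the WT range (0.22 ± 0.26, adjusted p = 0.793). Ncf1, which encodes the cytosolic organizer p47phox, was above WT on every KO array (0.48 ± 0.26) without passing the test (adjusted p = 0.434). Ncf4, the gene of p40phox, differed by 0.26 and the GTPase gene Rac2 by 0.06. Cybc1, whose product is the chaperone of the membrane complex, lay below WT on every KO array and differed by -0.29 ± 0.21 (adjusted p = 0.612). Of the 9 measured genes of the list, 1 was called, and that was Cybb. None of the 10 nearest measured genes on either side of Cybb on the X chromosome was called, and the nearest to a call was Porcn at -0.89 ± 0.27 (adjusted p = 0.0734). Only 10 of these 20 genes, Porcn not among them, had a mean signal of at least 100 in the higher group. Among the dimmer genes the standard error reached 1.24, for H2ap, so differences there could be missed.

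**Figure D1:**
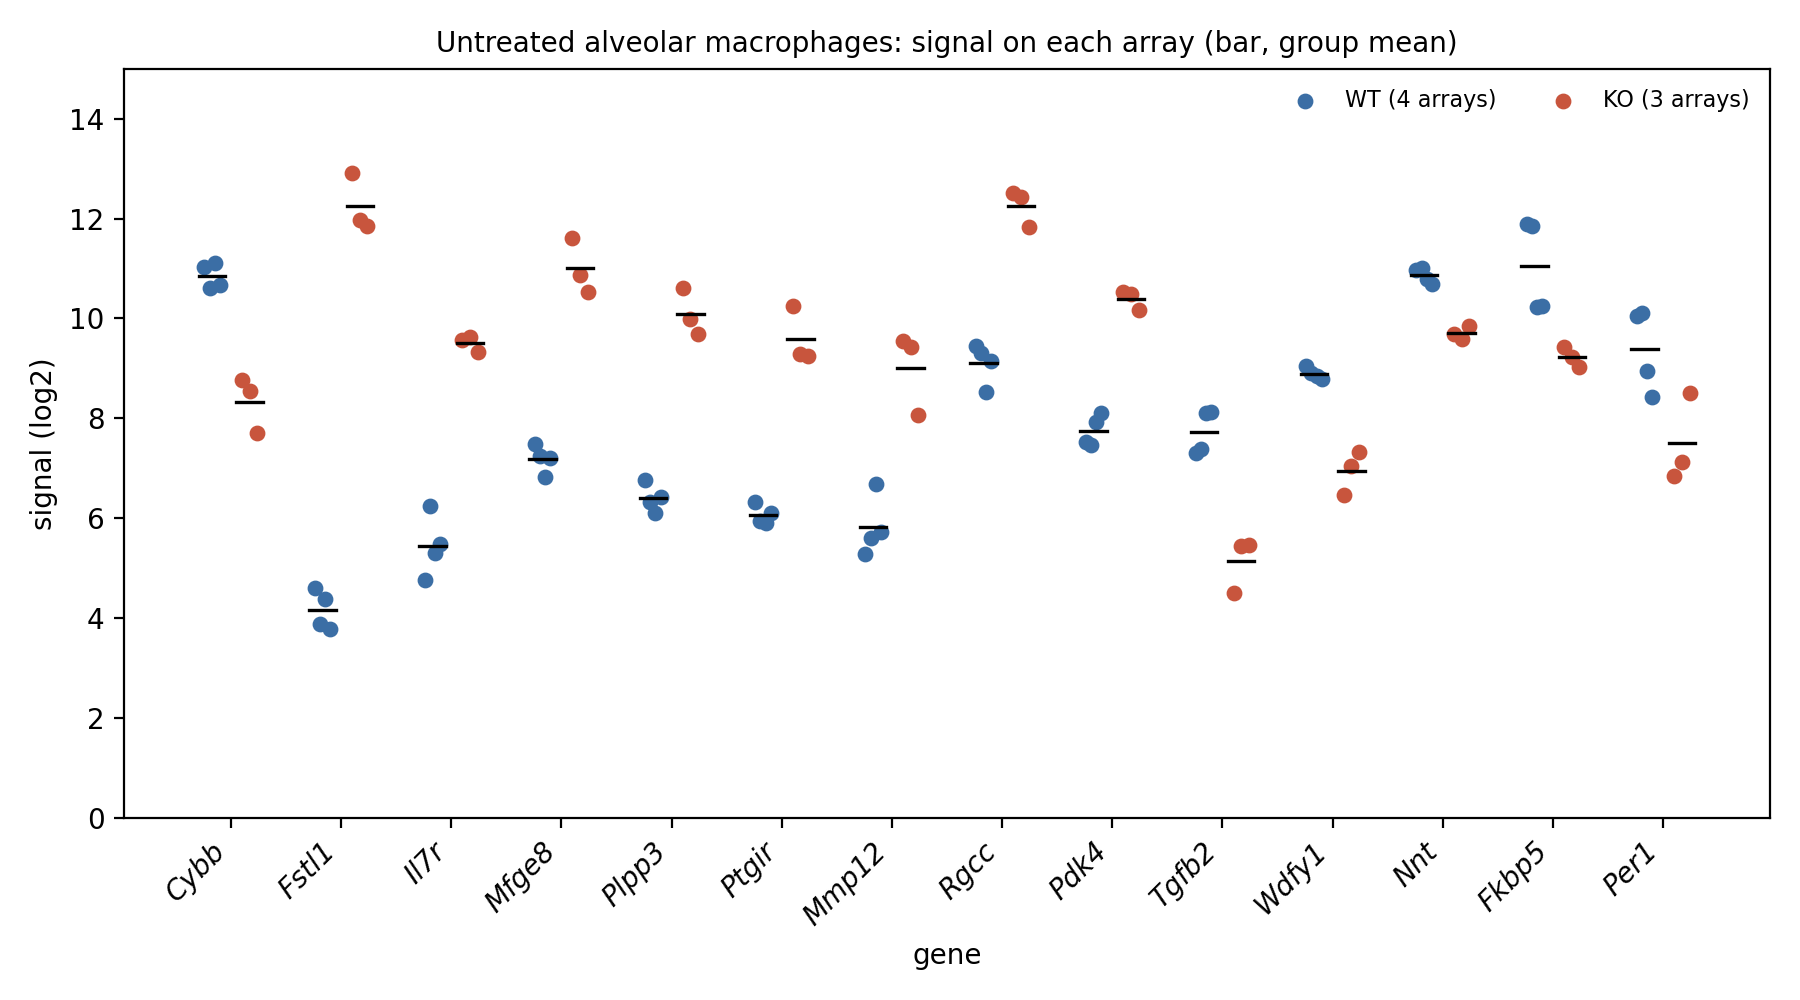
Signal (log2) of 14 genes on each untreated array, WT in blue (4 arrays) and KO in red (3 arrays), with a bar at each group mean. Fstl1 lay between 3.78 and 4.60 in WT and between 11.85 and 12.92 in KO, while the Per1 groups overlapped.

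Among 6712 genes with a mean signal of at least 100 in the higher group, 275 were called (4.1%), 154 higher and 121 lower in KO. The KO arrays lay entirely above the WT arrays for 153 of the 154 and entirely below for 113 of the 121. Over all genes the KO arrays lay entirely above for 6.9% and entirely below for 9%. The 275 genes were called on these same arrays, so their separation follows largely from the call and adds no support to it. Differences of at least 2-fold were found in 89 of the higher and 42 of the lower genes, so the larger changes were mostly rises. The count of 275 was 67 without KO array 1, 114 without KO array 2, 511 without KO array 3, 169 without WT array 3, 182 without WT array 4 and 25 in the fit of only the 7 arrays.

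**Figure D2:**
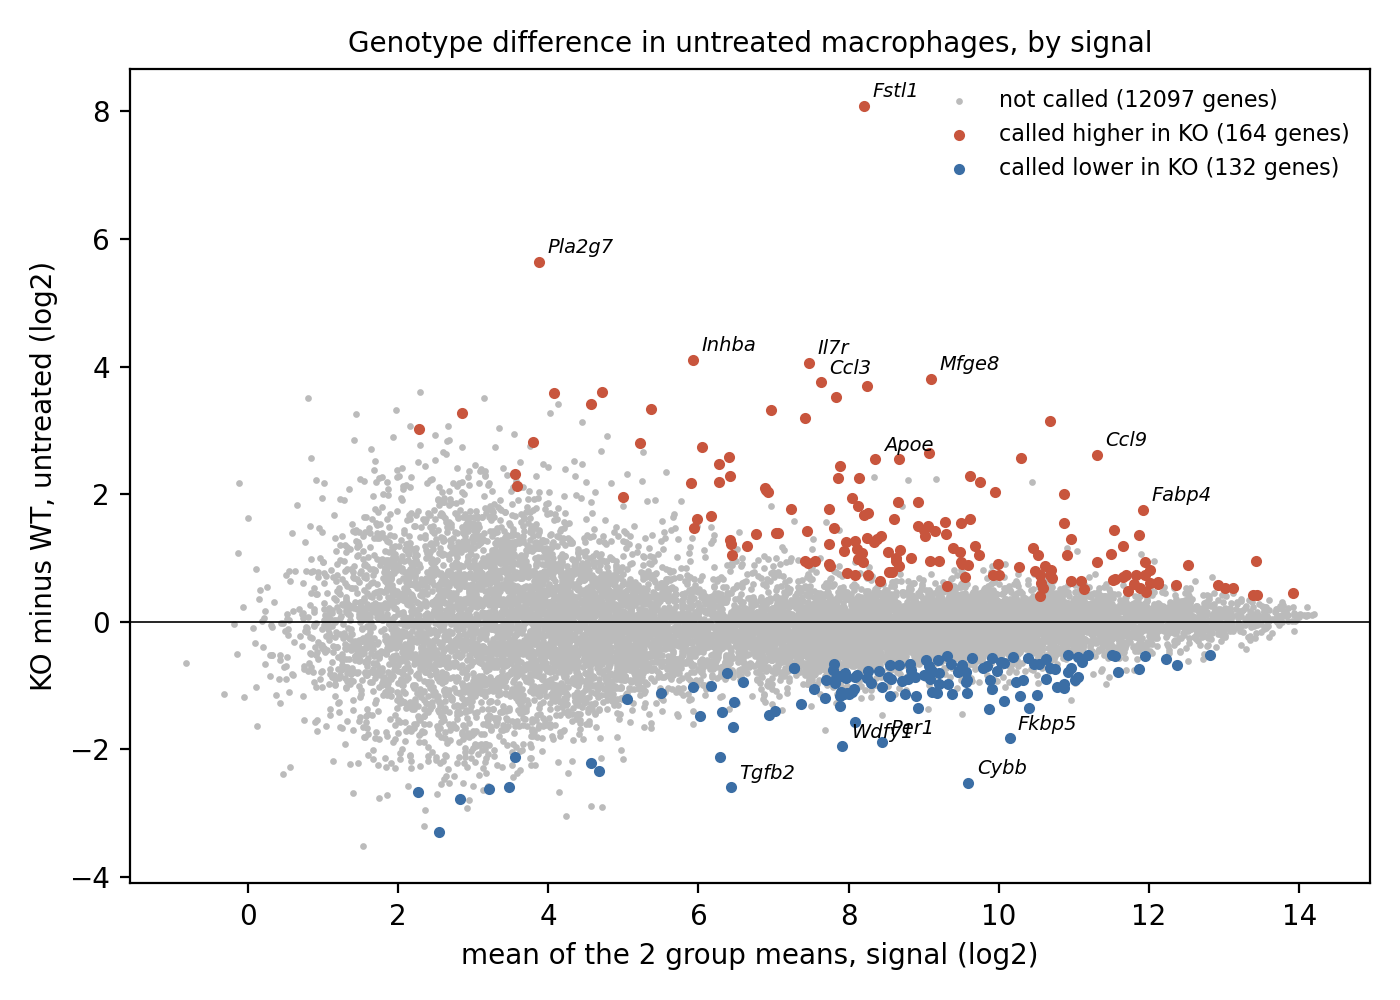
Difference KO minus WT (log2) against the mean of the group means (log2 signal) for 12393 genes, with the 164 called higher in red, the 132 called lower in blue and the rest in grey. The scatter is wide below a log2 signal of about 6, and the rises reach farther from 0 than the falls.

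The largest rise was in Fstl1, which encodes the secreted glycoprotein follistatin-like 1. Its signal was 4.60, 3.88, 4.37 and 3.78 in WT, below 50 on every array, and 12.92, 11.97 and 11.85 in KO, among the bright probe sets. The difference was 8.09 ± 0.56 (limma, adjusted p = 8.79e-13), and 6.60 when every signal under 50 was set to 50. Mfge8, which encodes a bridging protein for the uptake of apoptotic cells, stood at 7.48, 7.24, 6.83 and 7.21 in WT and 11.62, 10.87 and 10.52 in KO. The groups were far apart (3.81 ± 0.25, adjusted p = 4.13e-13), a 14.0-fold difference. Il7r, the gene of the interleukin-7 receptor alpha chain, stood at 4.76, 6.24, 5.31 and 5.48 in WT and 9.57, 9.63 and 9.33 in KO (4.06 ± 0.47, adjusted p = 3.36e-07). Il7r was the only called member of the T and NK cell list; without it the list's summed signal was 233 to 337 in WT and 366 to 484 in KO.

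The other genes among the 15 largest rises had varied roles. Plpp3, a phosphatase of bioactive lipid phosphates, rose by 3.69 ± 0.30 (adjusted p = 3.13e-11), and Ptgir, the prostacyclin receptor gene, by 3.53 ± 0.27 (adjusted p = 1.04e-11). Rgcc, a regulator of the cell cycle, was bright in both groups and rose from 9.45, 9.30, 8.53 and 9.14 to 12.52, 12.44 and 11.82. Pdk4, whose product restrains pyruvate dehydrogenase, rose from 7.52, 7.47, 7.93 and 8.10 to 10.53, 10.49 and 10.17. None of these 4 genes overlapped between the groups, and each kept its call in every alternative run, as did Fstl1, Mfge8 and Il7r. Marcks, a substrate of protein kinase C that binds actin, rose by 3.31 ± 0.74 and the transcription factor gene Sox7 by 3.33 ± 0.67. Inhba, which encodes the activin A subunit, rose by 4.11 ± 0.90, and Fam20c, a kinase gene of the secretory pathway, by 2.74 ± 0.68. Their WT signals were below 50 on every array, except WT array 1 for Marcks, and with signals under 50 set to 50 the differences were 2.34 for Inhba, 1.39 for Sox7, 1.77 for Fam20c and 2.97 for Marcks, all still called. Pla2g7, which encodes the platelet-activating factor acetylhydrolase, rose by 5.64 ± 1.23 from WT signals far below 50, and raising every signal below 50 to 50 left a difference of 1.05 that was not called (adjusted p = 0.499). Without KO array 1 the calls of Marcks (adjusted p = 0.0667), Sox7 (0.0664), Inhba (0.0851), Pla2g7 (0.0664) and Fam20c (0.119) were lost, and Fam20c also lost its call without KO array 2 (0.101), WT array 3 (0.0693) or WT array 4 (0.0902).

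Of 24 measured chemokine genes 4 were called higher, against 1.32% of all genes, and none lower. Of the differences 16 were above 0, and the list's median was 0.42 against -0.06 over all genes. Ccl3, an inflammatory chemokine gene, stood at 5.41, 6.22, 6.03 and 5.36 in WT and 10.51, 10.08 and 7.95 in KO. KO array 3 was lower than the other two, though still above every WT array (3.76 ± 0.68, adjusted p = 0.00091). Ccl9, which encodes a CCR1 ligand, was 11.14, 10.72, 9.09 and 9.04 in WT and 13.29, 12.99 and 11.57 in KO (2.62 ± 0.46). Ccl22, a CCR4 ligand, rose by 2.09 ± 0.30, and Cxcl16, a transmembrane ligand of CXCR6, by 1.77 ± 0.43; the latter call was lost without KO array 1 (adjusted p = 0.141) or WT array 3 (0.061). The list median fell to 0.11 when signals under 50 were set to 50, since 16 of the 24 genes had no clear signal.

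Of 23 cytokine genes 1 was called, Il1a, the interleukin-1 alpha gene, at 7.67, 7.58, 7.67 and 7.98 in WT and 10.20, 10.18 and 8.41 in KO (1.87 ± 0.37). KO array 3 again sat nearest to WT, and the call was lost without KO array 1 (adjusted p = 0.0712) or KO array 2 (0.0566). Tnf differed by 0.76 ± 0.38 with overlapping arrays (adjusted p = 0.369). None of 17 NF-kB pathway genes, 26 interferon-responsive genes or 9 inflammasome genes was called. Among 26 fungal recognition and phagocytic receptors 2 rose, the neighbouring C-type lectin genes Clec4d (2.56 ± 0.56) and Clec4e (2.20 ± 0.43), whose products act together as receptors for fungal and mycobacterial glycolipids. Clec4d was 9.76, 9.14, 8.67 and 8.47 in WT and 11.51, 11.71 and 11.49 in KO, so the KO arrays were close together and above all WT arrays. Its call was lost without KO array 1 (adjusted p = 0.0544) or KO array 2 (0.0529), while Clec4e kept its call without any single array. Clec7a, the gene of the beta-glucan receptor dectin-1, was bright in both groups, from 13.40 to 13.47 in WT and from 13.62 to 13.86 in KO, and was not called (0.34 ± 0.14, adjusted p = 0.224).

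Of 22 proteases and matrix genes, 3 were called higher and 1 lower. The list median was 0.34, and 0.26 with a pseudocount of 16. Mmp12, the macrophage elastase gene, stood at 5.29, 5.60, 6.69 and 5.72 in WT and 9.55, 9.43 and 8.06 in KO (3.19 ± 0.51, adjusted p = 0.000153). Mmp14, a membrane-bound collagenase gene, rose by 2.58 ± 0.45 and Slpi, an inhibitor of leukocyte proteases, by 0.90 ± 0.21. Fn1, the fibronectin gene, fell by 0.67 on the log2 scale. The calls of Slpi and Fn1 were lost without KO array 1 (adjusted p = 0.193 and 0.189) or KO array 2 (0.103 and 0.137), and that of Fn1 without WT array 2 (0.0554) or WT array 4 (0.0587).

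Sterol synthesis was the list with the most calls. Of 20 measured genes of the mevalonate and cholesterol pathway and its regulators, 7 were called higher, against 1.32% of all genes, and none lower. Of the differences 17 were above 0, and 13 genes lay above WT on every KO array, as did 6.9% of all genes. The median was 0.61 against -0.06 over all genes. The called genes ran along the pathway: Idi1 (0.80 ± 0.18) and Fdps (1.32 ± 0.34) make and join the isoprenoid units, Fdft1 (0.86 ± 0.21) and Sqle (0.73 ± 0.14) form squalene and its epoxide, and Msmo1 (0.88 ± 0.18) and Sc5d (0.95 ± 0.21) act late on the sterol ring. Scd2, a fatty acid desaturase gene on the list, rose by 1.30 ± 0.22. Sqle was 10.21, 10.19, 10.32 and 10.56 in WT and 11.02, 10.95 and 11.18 in KO, a small difference with tight groups. Hmgcs1, an early enzyme gene, was above WT on every KO array (0.71 ± 0.21) and missed the threshold (adjusted p = 0.0623). Srebf2, the gene of the pathway's main transcription factor, did not pass (-0.10 ± 0.28, adjusted p = 0.934). The number of sterol genes called was 2 without KO array 1, 4 without KO array 2, 1 without the 3 arrays of high 3'/5' ratio and 0 in the fit of only the 7 arrays, while the list median stayed between 0.54 and 0.65 in these fits and in every other alternative computed for the lists.

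Lipid handling and lysosomal genes were called in 1 direction. Of 23 genes of lipid uptake, storage and export, 4 were called higher and none lower, although the median was 0.03, and -0.01 after quantile normalization. Apoe, the apolipoprotein E gene, stood at 7.43, 7.62, 6.29 and 6.98 in WT and 9.68, 9.71 and 9.50 in KO (2.55 ± 0.58). Scd1, a desaturase gene, rose by 2.29 ± 0.41, and the fatty acid binding protein genes Fabp4 and Fabp5 by 1.76 ± 0.21 and 0.45 ± 0.11. Of 30 lysosome and phagosome genes 5 were called higher, against 1.32% of all genes, and none lower (median 0.12). These were the cathepsin genes Ctsk (0.96 ± 0.17), Ctsl (0.53 ± 0.11) and Ctsb (0.41 ± 0.11), the legumain gene Lgmn (1.04 ± 0.28) and the alpha-galactosidase gene Gla (0.95 ± 0.21). Ctsk was 13.02, 12.99, 12.85 and 12.90 in WT and 13.87, 13.97 and 13.86 in KO, among the brightest signals on the arrays. Every called gene named in this paragraph lost its call in the fit of only the 7 arrays. Without KO array 1 the lipid handling list had 2 calls and the lysosome list 1; without KO array 2 they had 2 and 3, without WT array 3 they had 2 and 3, and without WT array 1 or WT array 2 the lysosome list had 3.

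Genes for handling oxidants moved in small numbers. Of 19 NRF2 targets 3 were called higher, against 1.32% of all genes. They were the haem oxygenase gene Hmox1 (1.44 ± 0.33), the cystine transporter gene Slc7a11 (2.19 ± 0.58) and the glutathione transferase gene Gstm1 (0.94 ± 0.23). Hmox1 was 8.36, 8.07, 8.23 and 8.49 in WT and 10.02, 9.24 and 9.94 in KO, without overlap. The list median was 0.10, and Nqo1, a standard NRF2 target, was not called (0.68 ± 0.62, adjusted p = 0.709). No NRF2 target was called without KO array 1 or without the 3 arrays of high 3'/5' ratio, 1 was called without WT array 1 or WT array 2, and 2 were called when any other single array was left out. Slc7a11 was the least firm, since leaving out any 1 of the 7 arrays cost its call (adjusted p from 0.0554 to 0.127). All 3 calls were also lost in the fit of only the 7 arrays. Of 18 genes for removing superoxide and peroxide 1 was higher, the manganese superoxide dismutase gene Sod2 (0.47 ± 0.12, arrays overlapping), and 1 was lower. The lower gene was Nnt, which encodes the mitochondrial transhydrogenase that supplies NADPH, at 10.97, 11.02, 10.78 and 10.68 in WT and 9.68, 9.58 and 9.85 in KO (-1.16 ± 0.19, adjusted p = 0.000279). A second Nnt probe set differed by -1.19. The call of Sod2 was lost without KO array 1 (adjusted p = 0.327), KO array 2 (0.174), WT array 2 (0.0527), WT array 3 (0.134) or WT array 4 (0.15). Nnt and Wdfy1 were both on a list of 8 measured genes known to vary between common inbred mouse strains. Of these 8, 2 were called, both lower, against 1.07% of all genes. Wdfy1, which encodes an endosomal protein, was 9.06, 8.90, 8.84 and 8.78 in WT and 6.46, 7.04 and 7.33 in KO (-1.95 ± 0.35).

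Among genes of clear signal, the largest falls besides Cybb were in Tgfb2, Smyd2 and Wdfy1. Tgfb2, the gene of transforming growth factor beta 2, stood at 7.30, 7.39, 8.12 and 8.13 in WT and 4.50, 5.45 and 5.47 in KO (-2.59 ± 0.34, adjusted p = 3.31e-06). Of its other 2 probe sets 1 was called at -3.46 and 1 differed by -2.27 without passing (adjusted p = 0.0743). Smyd2, a lysine methyltransferase gene, fell by 2.12 on the log2 scale and kept its call in every alternative in which it was tested, as did Wdfy1. Smaller falls were measured for the DNA repair glycosylase gene Mbd4 (-1.47 ± 0.30), Tsc22d4 (-1.58 ± 0.32), Fam43a (-1.64 ± 0.36), the Notch-modifying glycosyltransferase gene Lfng (-1.47 ± 0.36), the RNA-binding protein gene Nanos1 (-1.41 ± 0.33), the retinoic acid receptor gene Rarg (-1.40 ± 0.39), the Wnt coactivator gene Pygo2 (-1.35 ± 0.34) and Ccnd3, the cyclin D3 gene (-1.36 ± 0.31). Of these 8 only Mbd4 kept its call without KO array 1, where Tsc22d4 came to an adjusted p of 0.0808, Fam43a to 0.221, Lfng to 0.0893, Nanos1 to 0.103, Rarg to 0.507, Pygo2 to 0.26 and Ccnd3 to 0.143. Lfng, Nanos1, Rarg, Pygo2 and Ccnd3 also lost the call without KO array 2 (0.163, 0.0632, 0.0686, 0.166 and 0.101) and without WT array 3 (0.0818, 0.05, 0.125, 0.0715 and 0.0527). Lfng, Rarg and Pygo2 lost it without WT array 4 (0.0783, 0.112 and 0.0718) and Rarg without WT array 1 (0.0845). Ccnd3 was the 1 gene called lower among 39 cell cycle genes, against 1.07% of all genes, and 11 of the 39 were below WT on every KO array, against 9% of all genes; the list median was -0.25.

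Some glucocorticoid-responsive genes differed between arrays within WT. Fkbp5, a co-chaperone gene that glucocorticoids induce, was 11.90 and 11.84 on WT arrays 1 and 2, 10.24 and 10.25 on WT arrays 3 and 4, and 9.43, 9.23 and 9.03 in KO (-1.83 ± 0.37, adjusted p = 0.00318). Tsc22d3, which encodes the glucocorticoid-induced leucine zipper protein, showed the same order at 11.12, 10.95, 9.48 and 9.38 against 8.99, 8.59 and 8.77, and was not called (-1.45 ± 0.46, adjusted p = 0.0964). Klf9, a transcription factor gene, was 12.60, 12.74, 11.25 and 11.09 against 10.84, 11.04 and 10.96 on its brightest probe set, which was not called (-0.97 ± 0.30, adjusted p = 0.0829), while its other 2 probe sets were called at -1.16 and -1.66. WT arrays 1 and 2 were thus the high ones for these 3 genes, and they were also those with the highest 3'/5' ratios. KO array 3, at a ratio of 3.09, was below every WT array for all 3 genes, at 9.03, 8.77 and 10.96. The part of the ratio was not tested beyond the fits given here. Cebpd, another induced transcription factor gene, was even within WT, at 10.22, 10.63, 10.78 and 10.57 against 8.83, 9.26 and 9.46 (-1.37 ± 0.25). A second, dimmer probe set of Fkbp5 (-1.11 ± 0.39, arrays overlapping) and one of Cebpd (-0.83 ± 0.29) were not called (limma, adjusted p = 0.147 and 0.14). Of 14 measured genes of the list, 2 were called lower (Fkbp5, Cebpd) and 1 higher (Pdk4), and the median was -0.50. Without the 3 arrays of high 3'/5' ratio, WT arrays 1 and 2 among them, the median was 0.01. Fkbp5 was not called in that fit (-0.91 ± 0.42, limma, adjusted p = 0.275), while Cebpd was (-1.63 ± 0.33). With the 3'/5' ratio as a covariate in the fit, Fkbp5 kept its call. The list median was also near 0, at -0.05, with signals under 50 set to 50.

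Of 17 clock genes 2 were called lower and 2 higher. Per1, a repressor gene of the clock, was 10.05, 10.11, 8.95 and 8.42 in WT and 6.86, 7.13 and 8.51 in KO, with KO array 3 inside the WT range (-1.88 ± 0.35, adjusted p = 0.00144). Nfil3, an output repressor gene, fell by 1.19 on the log2 scale, and the repressor genes Cry1 and Bhlhe40 rose by 0.93 ± 0.23 and 0.73 ± 0.17. The time of day of collection is not given in the labels. The list median was -0.29, and it turned to 0.27 without the 3 arrays of high 3'/5' ratio. None of the 4 was called without KO array 1, where Per1 had an adjusted p of 0.0554, Bhlhe40 of 0.122, Cry1 of 0.141 and Nfil3 of 0.165. Cry1 and Nfil3 also lost their calls without KO array 2 (0.183 and 0.0955), WT array 3 (0.0832 and 0.116) or WT array 4 (0.0676 and 0.0902), and Nfil3 without KO array 3 (0.0519).

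**Figure D3:**
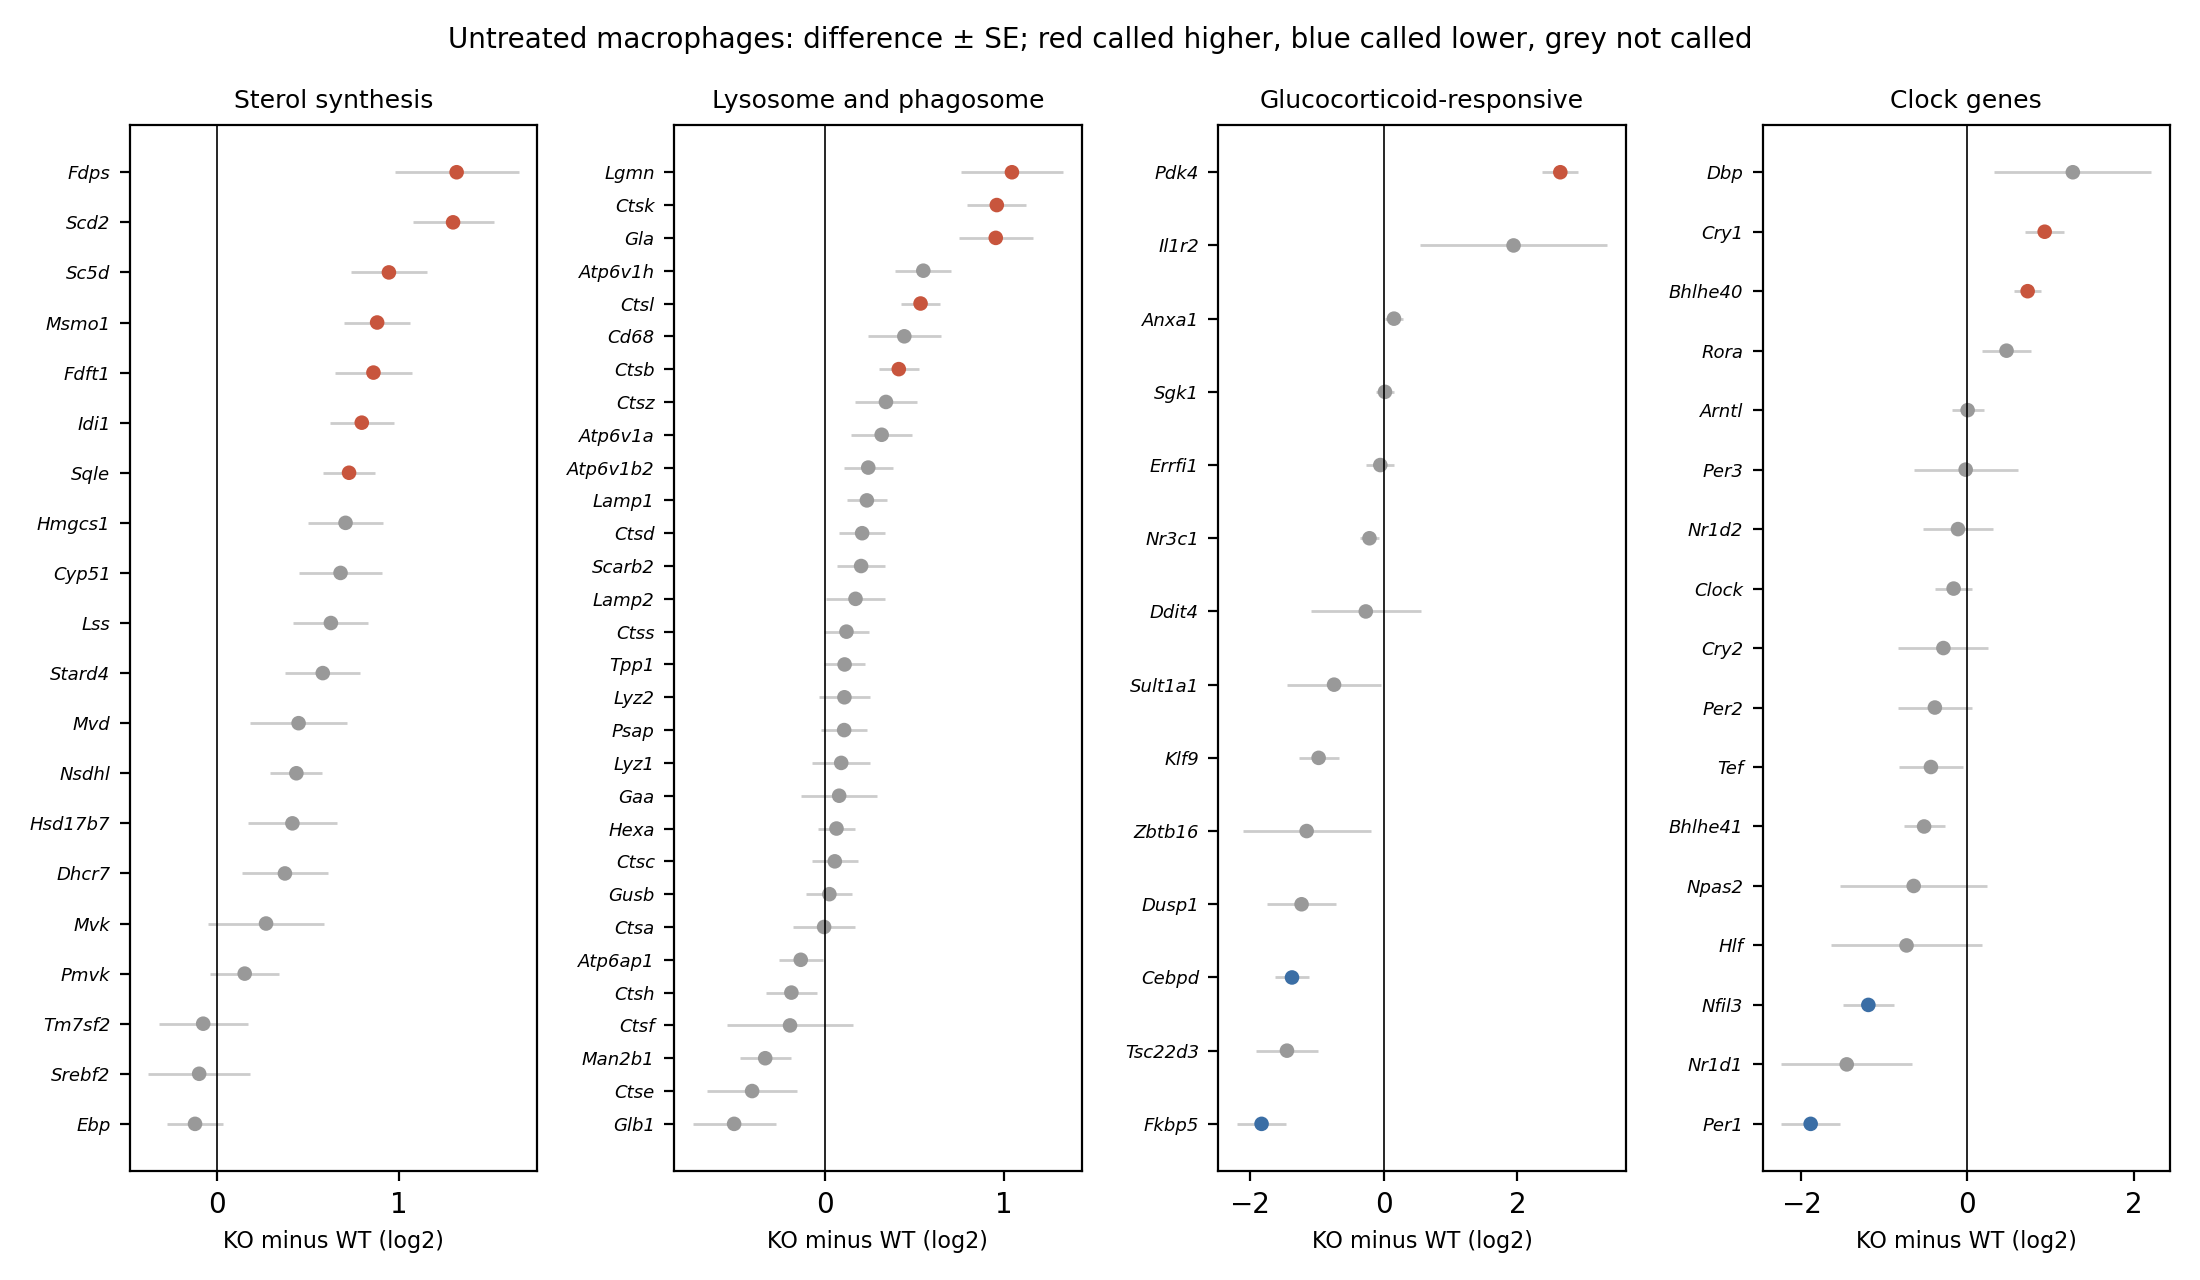
Difference KO minus WT (log2, point) with its standard error (line) for every measured member of 4 gene lists, called higher in red, called lower in blue and not called in grey. The sterol synthesis genes lie mostly to the right of 0, with a median of 0.61, whereas glucocorticoid-responsive and clock genes lie on both sides.

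The E-box CACGTG is the element bound by the clock activators CLOCK and BMAL1, so it was searched on both strands in the 250 bases before the start site, from the RefSeq promoters of GRCm38.p6. It was found in 2 of the 3 called clock genes that have a promoter there, Cry1 and Per1, and in 6.86% of all 27025 genes that have one. Both windows are shown because they hold the motif, and of the 2 genes Per1 was called lower and Cry1 higher. Capitals mark the motif, which begins at position -166 from the start site of Per1 and -60 from that of Cry1. A match describes the letters and is not a bound site. The windows are chr11:69098699-69098948, plus strand, for Per1 and chr10:85185055-85185304, minus strand, for Cry1, each written 5′ to 3′ on the strand of its gene.
Per1: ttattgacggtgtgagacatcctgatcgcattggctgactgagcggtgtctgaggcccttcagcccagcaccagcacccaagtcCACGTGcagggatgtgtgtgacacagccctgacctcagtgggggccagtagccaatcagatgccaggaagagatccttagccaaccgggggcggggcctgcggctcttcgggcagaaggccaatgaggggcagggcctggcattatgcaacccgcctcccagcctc
Cry1: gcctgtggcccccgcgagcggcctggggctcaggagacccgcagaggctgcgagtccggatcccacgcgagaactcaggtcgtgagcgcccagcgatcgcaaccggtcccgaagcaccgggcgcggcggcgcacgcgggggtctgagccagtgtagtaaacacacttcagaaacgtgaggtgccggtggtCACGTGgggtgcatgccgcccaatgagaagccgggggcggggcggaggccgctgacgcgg
Searched in the same way, the sterol regulatory element (SREBP motif) was in none of the 3 called sterol genes with a promoter (0.226% of all genes with one). The antioxidant response element TGACNNNGC was in neither of the 2 called NRF2 targets with a promoter (11.5% of all genes with one).

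Among 25 immediate-early genes 2 rose, Atf3 (1.71 ± 0.28) and Maff (1.43 ± 0.22), both stress-induced transcription factor genes, and Jund, an AP-1 subunit gene, fell (-1.04 ± 0.25). Atf3 was 7.29, 7.07, 7.69 and 7.55 in WT and 9.38, 9.31 and 8.64 in KO, without overlap. The call of Jund was lost without KO array 1 (adjusted p = 0.148), KO array 2 (0.138), WT array 1 (0.0555) or WT array 2 (0.0536). Other genes called on the lists included the metallothionein gene Mt2 (1.44 ± 0.39), the tetrahydrobiopterin synthesis gene Gch1 (1.12 ± 0.29), the glucose transporter gene Slc2a1 (1.25 ± 0.27), the Fc receptor gene Fcgr4 (0.74 ± 0.20), the complement gene C1qb (1.66 ± 0.46), the class I antigen presentation gene B2m (0.42 ± 0.12), the vinculin gene Vcl (1.47 ± 0.31) and the pro-apoptotic gene Pmaip1 (1.30 ± 0.30), all higher, and the interleukin-4 receptor gene Il4ra (-1.17 ± 0.32). Without KO array 1 none of these 9 was called, with adjusted p of 0.161 for Mt2, 0.251 for Gch1, 0.0765 for Slc2a1, 0.418 for Fcgr4, 0.292 for C1qb, 0.219 for B2m, 0.0557 for Vcl, 0.133 for Pmaip1 and 0.189 for Il4ra. Leaving out any 1 of the 7 arrays cost the call of Mt2 (0.0538 to 0.161), and any but KO array 3 cost those of Fcgr4 (0.059 to 0.418), C1qb (0.0567 to 0.292), B2m (0.0638 to 0.224) and Il4ra (0.0629 to 0.237). Gch1 also lost its call without KO array 2 (0.115), WT array 1 (0.112) or WT array 2 (0.0789), and Pmaip1 without KO array 2 (0.0727) or WT array 3 (0.0849). Of 53 respiratory chain, 44 ribosomal protein and 25 heat shock genes none was called.

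Outside the lists, some called genes were picked after their values were seen. Cd200, an inhibitory ligand gene, was 9.31, 8.38, 8.93 and 9.11 in WT and 11.07, 10.89 and 10.91 in KO (2.03 ± 0.25, adjusted p = 8.66e-07). Rgs1, a regulator of G protein signalling, rose by 2.55 ± 0.33, and these 2 genes kept their calls in every alternative run. The growth factor gene Igf1 rose by 1.50 ± 0.23, the lectin gene Clec5a by 1.87 ± 0.25 and Gpnmb, a lysosome-linked glycoprotein gene, by 1.19 ± 0.26, the last losing its call without KO array 1 (adjusted p = 0.118).

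The resting differences were then followed in the 6 instilled conditions, each with its own arrays of both genotypes. The spread of a probe set came from the fit over all arrays and was shared by these comparisons. The genes followed had a mean signal of at least 100 in the higher group, whereas the shares beside them are over all 12393 genes. Of the 154 genes higher at rest, 102 were also called higher after mock at 2 h, where 1.67% of all genes were, and 87 after mock at 4 h, where 3.03% were. After e6 conidia the numbers were 102 at 2 h (1.72% of all genes) and 98 at 4 h (12.9%), and after e7 conidia 85 at 2 h (6.51%) and 83 at 4 h (10.8%). Over the mean of the 6 conditions 146 of 154 were called higher, against 23.5% of all genes. Of the 121 genes lower at rest, fewer were called again: 18 after mock at 2 h (0.871% of all genes), 25 after e6 at 2 h (0.75%), 22 after e7 at 2 h (2.36%), 14 after mock at 4 h (1.03%), 34 after e6 at 4 h (5.11%) and 23 after e7 at 4 h (6.05%). Over the mean of the 6 conditions 82 of 121 were called lower, against 13% of all genes. The labels' titles and protocols disagree on whether the WT arrays of the 4 h mock group received conidia.

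The genes that stayed different were mostly rises. In all 6 conditions 51 of the higher and 3 of the lower genes were called in the same direction, the 3 being Cybb, Rras2 and Kazald1. The share of all genes called in all 6 conditions, or in none, was not computed, so these counts have no background beside them. Fstl1 differed by 7.45 to 9.70 in these conditions, Mfge8 by 4.37 to 4.98, Il7r by 3.51 to 4.75, Mmp12 by 3.39 to 4.21 and Plpp3 by 3.06 to 3.72. In the same direction, 21 of the higher and 57 of the lower genes were called in none of the 6 conditions; 1 of the 21 and 4 of the 57 were called in the opposite direction in at least 1 condition. Among those not called in either direction were Atf3, 1.71 at rest and 0.33 over the mean of the conditions, Sqle (0.73 and 0.12), Fdft1 (0.86 and 0.21), Jund (-1.04 and -0.08), Nfil3 (-1.19 and -0.19) and Il4ra (-1.17 and 0.09). Gadd45b (1.67 and 0.13) and the prostaglandin receptor gene Ptger4 (1.06 and -0.15) did the same and were picked after their values were seen. Over the mean of the 6 conditions, Atf3 was still called higher (limma, adjusted p = 0.0268). Sqle, Fdft1, Jund, Nfil3 and Il4ra were not called over that mean.

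**Figure D4:**
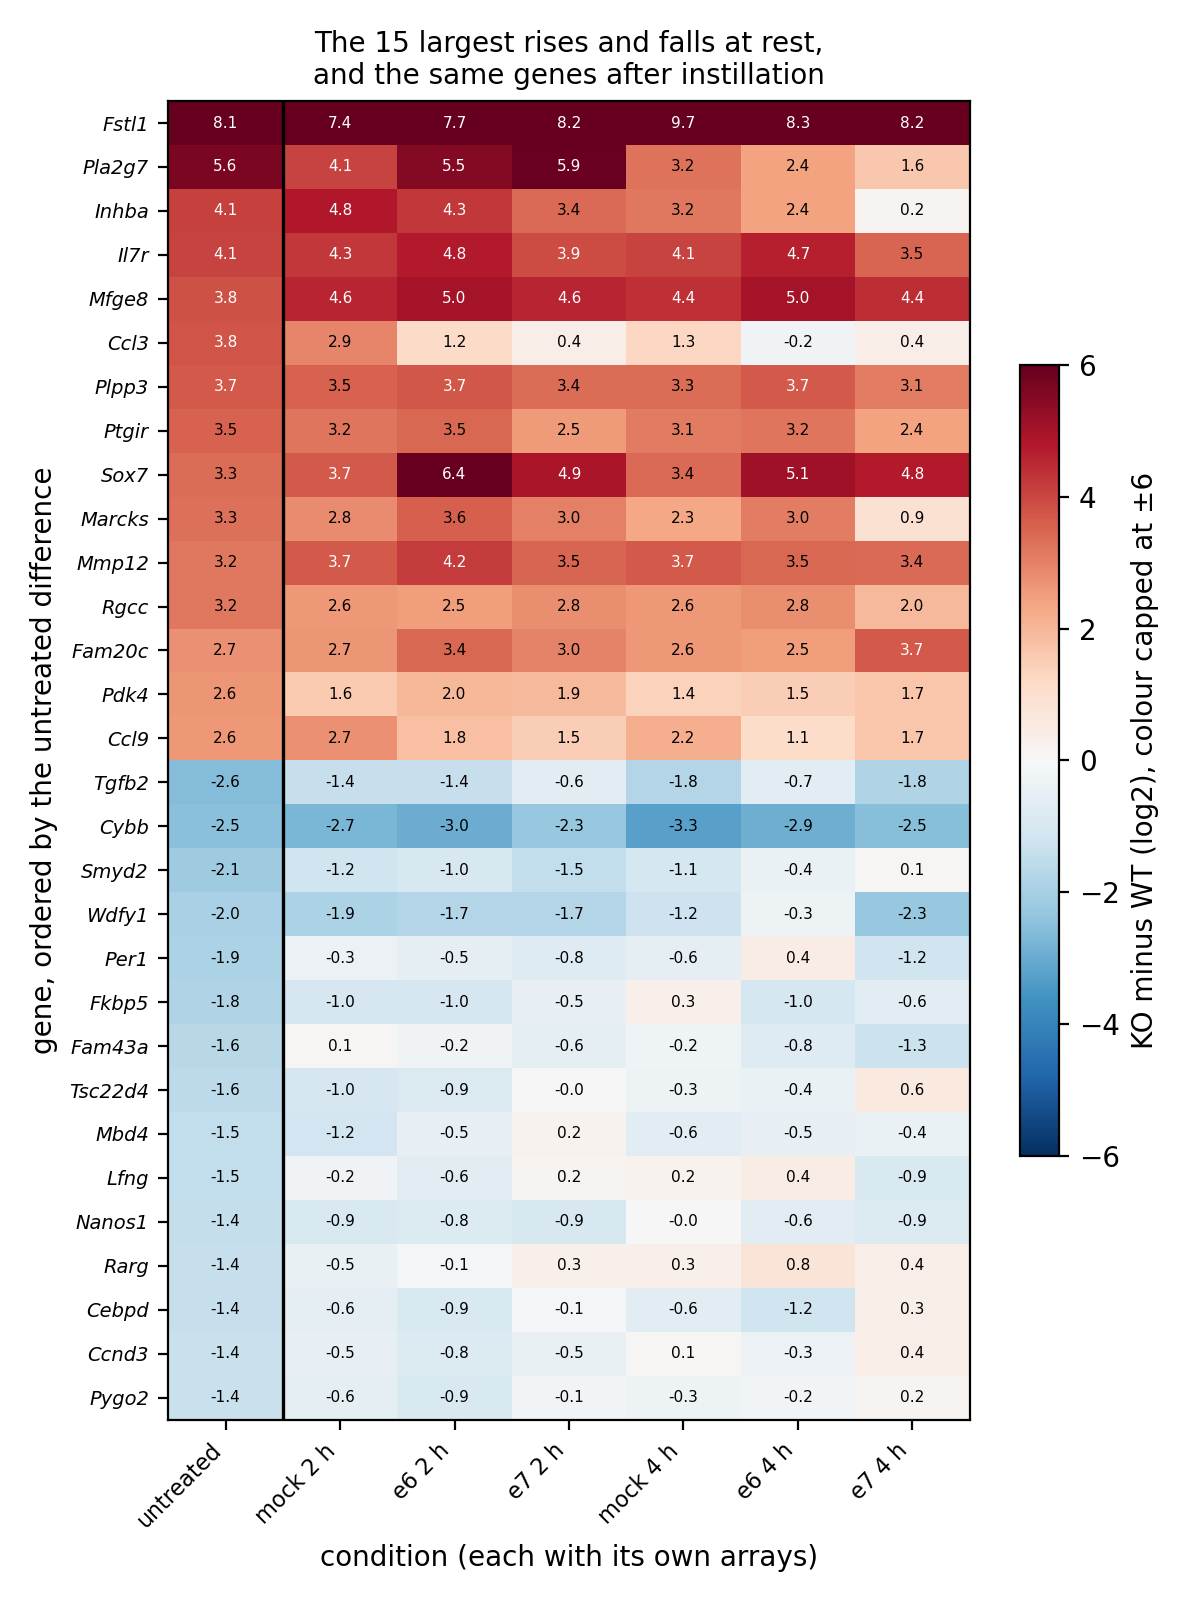
Difference KO minus WT (log2, colour and number) for the 15 largest rises and 15 largest falls among called genes of clear signal, in untreated cells (left column) and in the 6 instilled conditions. Fstl1, Il7r, Mfge8 and Cybb keep their colour across the columns, whereas most of the other falls fade.

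A direct test of the genotype difference at rest against that after mock called 5 probe sets (0.0221% of those tested; 2186 had an unadjusted p below 0.05). Of the genes just named as called at rest and in no instilled condition, none passed it. Fancg and Pex26, which were lower at rest and called lower in none of the 6 conditions, did pass it (limma, adjusted p = 0.0105 for both). The count of 5 probe sets was 37 without KO array 3, 0 without KO array 2, 1 without WT array 3, 2 without KO array 1 or WT array 4 and 3 without WT array 2.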

How the data were processed

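The deposited values are the authors' signal intensity on a linear scale, 1 per probe set and array. Total RNA (100 ng, RNeasy) was biotin-labelled by a 2-cycle procedure, per the labels' protocols; the submitters' processing notes name GCOS and RMA without version or role. Each untreated array had a 2% trimmed mean near 500, with no common distribution. The genome build is not given in the sources used here; names, gene order and promoters came from RefSeq GRCm38.p6.

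Of 22690 probe sets 64 controls were left out. Log2 signals of all 51 arrays, 15 groups, were fitted with limma 3.58.1 (R 4.3.3, lmFit and eBayes, no covariate), p adjusted by Benjamini-Hochberg over 22626 probe sets, and checked on simulated data. Of these, 20380 had 1 gene symbol, 691 several and 1555 none; a gene is its brightest 1-symbol probe set. Named are Cybb, its 10 neighbours on each side, the 15 largest rises and falls among called genes with a group mean of at least 100, members of 42 lists, the genes called at rest against mock and genes said to be picked after seeing values. Members, lists and tests were chosen with earlier results of these data known. The labels call the arrays biological replicates; p-values measure the spread between them.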

Additional observations from a re-analysis of the deposited data

Results flagged for a closer look

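The genotype difference at rest departed from that after mock (mean of 2 and 4 h) in 5 probe sets, by limma's test of that difference. Bcl6b differed by -2.78 at rest and by 0.33 and 1.63 after mock at 2 and 4 h, a change of -3.77 ± 0.66 (adjusted p = 0.0112), on a low signal. Pex26, a peroxisome assembly gene, changed by -1.41 ± 0.24 and Fancg, a DNA repair gene, by -1.33 ± 0.23 (adjusted p = 0.0105 for both). A probe set of Creb3l2 changed by -1.22 ± 0.24 (adjusted p = 0.0443). A low-signal probe set of Tcf7l2 changed by 2.99 ± 0.57 (adjusted p = 0.0383), being 1.25 at rest and -1.84 and -1.63 after mock.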

How the results depend on the processing

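The count of 450 probe sets was 58 in a fit of only the 7 arrays (37 shared) and 2062 with array weights (40.0% of them higher), and ran from 114 to 835 with 1 array left out. With probe sets of mean signal of at least 100 it was 657, 48.9% higher, against 57.8% in the reported fit. The 275 genes became 446 with that filter, 25 with only the 7 arrays and 1169 with array weights, and ran from 67 to 511 with 1 array left out. Over the 6 instilled conditions 7941 probe sets were called, 4361 with the filter; 68.5% of the 7941 were higher, but 43.0% after quantile normalization. The 5 calls at rest against mock became 0 with quantile normalization, 2 with a pseudocount of 16, 14 with the filter, 1 with only the groups compared, 468 with array weights and 1 without the arrays of high 3'/5' ratio, and ran from 0 to 37 with 1 array left out. Replicate numbers did not pair the arrays (correlations of deviations -0.09, 0.22 and -0.02); with the replicate block 436 probe sets, 273 genes and 10 calls at rest against mock were found. Of the named genes 88 were followed singly through the alternatives, and none of these changed sign. The sign of the other named genes was not followed. The medians of 15 of the 42 lists changed sign in at least 1 alternative, and the share of higher calls was 41.9% without KO array 3. Of the 83 called genes among the 88, 12 kept their call in all alternatives. The call was lost by 66 in the fit of only the 7 arrays, 50 without KO array 1, 8 with the 3'/5' covariate, 7 with quantile normalization and 4 with signals under 50 set to 50. The cause of these changes was not tested.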
